A study of Mus musculus with 21 samples.

Results

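The 10 genes described here encode tumor necrosis factor (Tnf) and its 2 receptors (Tnfrsf1a, Tnfrsf1b), interleukin-6 (Il6), its receptor chain (Il6ra) and the shared signal-transducing chain gp130 (Il6st), oncostatin M (Osm) and its receptor chain (Osmr), and the transcription factor STAT3 (Stat3) with its feedback inhibitor SOCS3 (Socs3). They were chosen by name, and their estimated reads were added over the transcripts of each gene and over the 2 files of a library. All 10 were found among 54123 genes. In GRCm38, the TNF genes lie at chr17:35199381-35202007 (Tnf), chr6:125349362-125362484 (Tnfrsf1a) and chr4:145213463-145246870 (Tnfrsf1b). Those of the interleukin-6 family lie at chr5:30013114-30019981 (Il6), chr3:89864059-89913196 (Il6ra), chr13:112464070-112510086 (Il6st), chr11:4236420-4241026 (Osm) and chr15:6813577-6874969 (Osmr). Stat3 and Socs3 lie at chr11:100885098-100939540 and chr11:117966079-117970047. RNA-Seq was performed on neutrophils (PMNs), labelled as blood neutrophils, and renal tubular epithelial cells (TECs) of wildtype mice. The study's methods describe male C57BL/6 mice aged 8 to 12 weeks. Cells were isolated 24 hours after sham surgery or after renal ischemia/reperfusion injury (IRI), in which both renal pedicles were clamped for 32 minutes. Remote ischemic preconditioning (RIPC), 3 inflations of a hind limb cuff for 5 minutes each, or a control procedure without limb ischemia was performed 15 minutes before. The 21 libraries made up 8 groups. PMNs gave 2 libraries of sham control, 3 of sham RIPC, 2 of IRI control and 3 of IRI RIPC, and TECs gave 3, 3, 2 and 3. The study describes them as biological replicate libraries. The labels do not tie libraries to mice, and p-values measured the spread between these libraries.

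TNF is an inflammatory cytokine made mainly by myeloid cells. Its receptor TNFR1, encoded by Tnfrsf1a, is found on most cell types and carries a death domain, whereas TNFR2, encoded by Tnfrsf1b, is largely restricted to leukocytes and endothelium. Cytokines of the interleukin-6 family, oncostatin M among them, bind a specific receptor chain that pairs with gp130, which activates Janus kinases and, through them, STAT3. STAT3 induces Socs3, whose product binds gp130 and the kinases and so closes a negative feedback loop. In neutrophils the same pathway is also driven by the receptor for granulocyte colony-stimulating factor, and in the kidney TNF and STAT3 signaling are known from the response of the tubule to ischemia.

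Sequence before the start sites is shown because STAT3 and TNF signaling are known to act on some of these genes. STAT factors bind palindromes of the form TTCNNNGAA, and NF-κB, the main transcription factor downstream of TNF receptors, binds sites that include GGG, any 2 bases and TTTCC in a row. Both forms were searched on both strands in the 250 bases before the RefSeq start of each gene (GRCm38.p6). RefSeq held 9 of the 10 genes, and Osm had no entry. The STAT form was present in 3 of the 9 windows, those of Tnfrsf1a, Tnfrsf1b and Socs3, against 7.02% of 32851 windows of all genes, and the NF-κB form was present in 1, that of Il6, against 1.41%. A match is a description of these letters only. The 4 matches, with the motif in capitals, the gene's strand and the window in which it lies, were as follows.
Tnfrsf1a (plus strand, window chr6:125349473-125349722): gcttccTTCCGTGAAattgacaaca
Tnfrsf1b (minus strand, window chr4:145246871-145247120): agcgcattcaTTCCCGGAAgagatgctgg
Socs3 (minus strand, window chr11:117969367-117969616): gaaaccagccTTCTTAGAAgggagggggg
Il6 (plus strand, window chr5:30012864-30013113): tatcaaatgtGGGATTTTCCcatgagtctc
The match lay 236 bases before the start in Tnfrsf1a, 173 in Tnfrsf1b, 146 in Socs3 and 35 in Il6. The windows of Tnfrsf1a and Socs3 overlapped Gencode exons by 36 and 77 bases, since Gencode has transcripts that start further upstream. The whole window of Tnfrsf1b, which lay outside exons and belongs to the receptor with the widest separation between the PMN groups described below, is shown with the same match in capitals.
Tnfrsf1b (minus strand, chr4:145246871-145247120): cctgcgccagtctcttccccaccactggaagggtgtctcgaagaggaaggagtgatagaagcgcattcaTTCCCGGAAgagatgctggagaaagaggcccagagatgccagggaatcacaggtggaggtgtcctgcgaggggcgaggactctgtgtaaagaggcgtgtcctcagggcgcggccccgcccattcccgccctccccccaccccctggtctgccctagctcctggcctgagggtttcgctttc

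The libraries held between 20881334 and 51624602 reads, both files added. The 2 files of a library were more alike than independent reads would be, so adding them may count a fragment 2 times, and a count of 0 was taken to allow up to 3 reads per file or 6 in all, which is 0.116 to 0.287 RPM (reads scaled to a common library total). These limits cover counting error only. The labelled cell types were checked against marker lists, as shown in the plot of marker lists by library. All 12 neutrophil markers were detected in PMNs after IRI, with a summed level between 21154 and 45525 TPM (a length-scaled abundance with the same total in every library), and the sum was between 9640 and 47544 TPM after sham surgery. The PMN libraries, although labelled as blood neutrophils, also held proximal tubule and macrophage transcripts. The 10 proximal tubule markers summed to between 1226 and 8532 TPM in PMNs after sham surgery, with a median of 4603, where TECs after sham surgery had a median of 4493. After IRI the same sum in PMNs was between 418 and 782 TPM. The 9 macrophage markers summed to between 1775 and 6013 TPM in PMNs after sham surgery and to between 330 and 1019 after IRI. The tubular and macrophage sums of the 2 surgeries did not overlap. The neutrophil sums overlapped only through replicate 1 of sham control (47544 TPM). The other sham libraries had at most 18178 TPM, below all IRI libraries, and the medians were 15590 TPM after sham surgery and 30519 after IRI. The sham and IRI libraries of PMNs compared below thus also differed in tubular and macrophage sums. Replicate 1 of sham control, with the highest neutrophil sum, had the lowest tubular sum of the sham PMN libraries (1226 TPM). The part of these sums in the differences described below was not tested. In bulk samples, fewer cells of a type and less RNA per cell cannot be told apart.

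**Figure D1:**
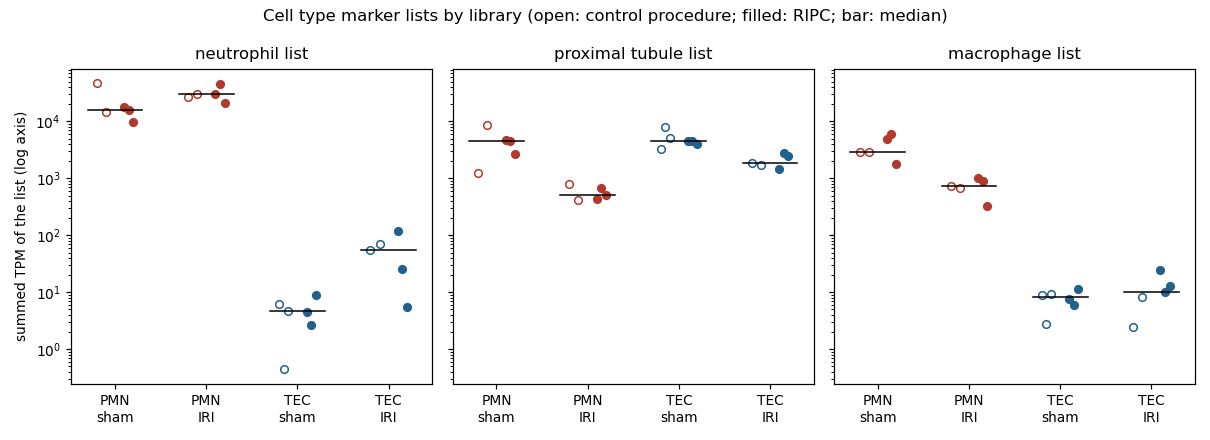
Summed level of 3 marker lists (vertical axis, TPM, log scale) in each library of PMNs and TECs after sham surgery or IRI, with open circles for the control procedure, filled circles for RIPC and a bar at the median. Proximal tubule markers in PMNs lay between 1226 and 8532 TPM after sham surgery, above all 5 IRI libraries (418 to 782 TPM), and macrophage markers followed the same order.

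In PMNs, every library after IRI held more Tnf, Osm, Tnfrsf1a, Tnfrsf1b, Stat3 and Socs3 transcripts than any library after sham surgery, whereas Il6, gp130 and the receptor chains of interleukin-6 and oncostatin M overlapped between the surgeries. Of the 10 genes, Tnfrsf1a alone passed the test, with a 6.41-fold higher level. This call was lost in 8 of 10 fits that each left out 1 library. It was also lost among control libraries alone, with a log2 fold change of 1.26. Libraries were compared by normalized counts, RPM after TMM scaling within a cell type, and tested with the quasi-likelihood F test of edgeR, IRI against sham averaged over RIPC and control, at a Benjamini-Hochberg adjusted p under 0.05 over all genes tested. All 10 genes were tested among 25002, and 1 of them was called higher and none lower, where 0.364% of all genes were called higher. The Wald test of DESeq2 called 4 of the 10 (Tnf, Tnfrsf1a, Tnfrsf1b and Osm), against 1780 of the 25002 genes in either direction. The median log2 fold change of the 10 genes was 2.13, and that of all genes was -0.01. In 6 of the 10 genes (Tnf, Tnfrsf1a, Tnfrsf1b, Osm, Stat3 and Socs3) each of the 5 IRI libraries lay above each of the 5 sham libraries, which held for 3.43% of all genes.

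**Figure D2:**
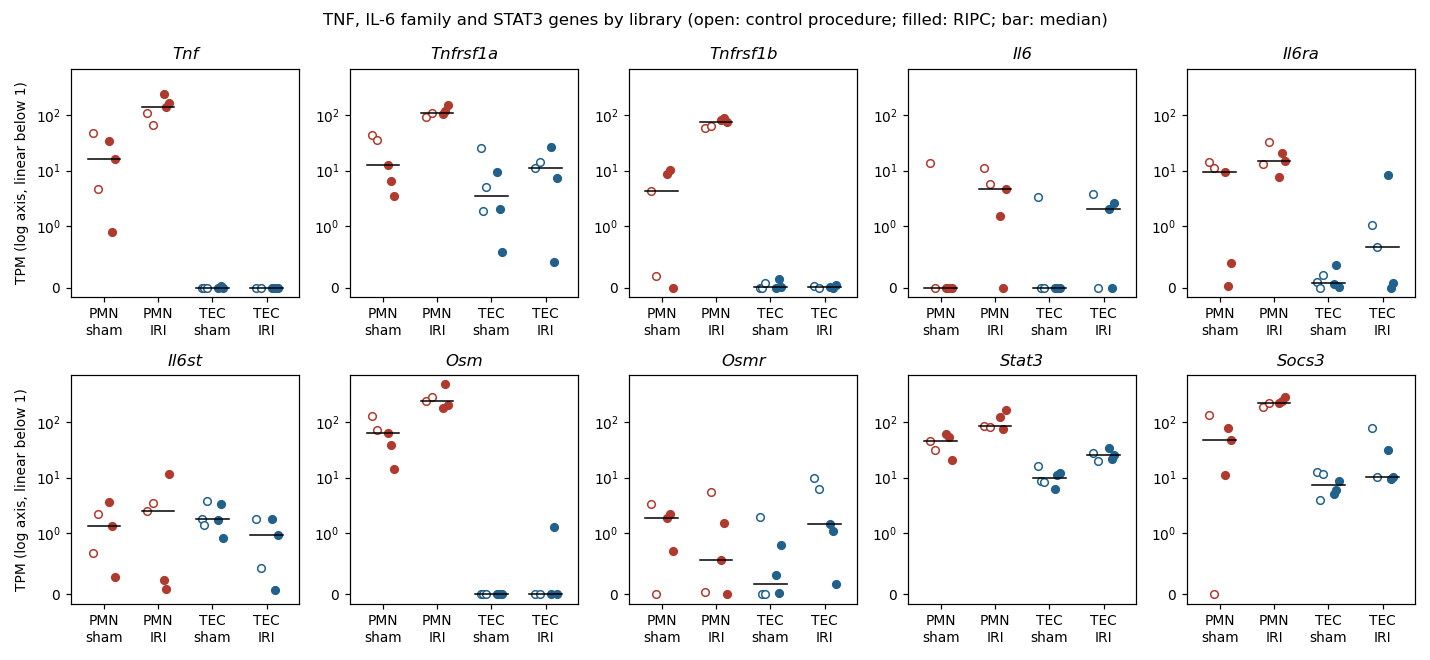
Level of each of the 10 genes (vertical axis, TPM, log scale above 1 and linear below) in PMNs and TECs after sham surgery or IRI, 1 circle per library, open for the control procedure and filled for RIPC, with a bar at the median. In PMNs the IRI libraries of Tnf, Tnfrsf1a, Tnfrsf1b, Osm, Stat3 and Socs3 lay above all sham libraries, and Tnf and Osm were at or near 0 in nearly all TEC libraries.

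Among the ligands, Tnf had 109 and 12.9 normalized counts in sham control PMNs and 88.5, 2.29 and 41.0 in sham RIPC PMNs. After IRI it had 271 and 171 in the control group and 638, 372 and 404 in the RIPC group. The lowest IRI library was thus above the highest sham library. The log2 fold change of Tnf was 2.64 (SE 0.90), which did not pass the test (adjusted p = 0.360, edgeR).

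Osm was, with Socs3, among the most abundant of the 10 genes in PMNs, and its TPM were above those of Socs3 in 5 of 10 libraries. Its normalized counts were 436 and 278 in sham control, 217, 143 and 55.4 in sham RIPC, 870 and 1073 in IRI control, and 705, 1944 and 748 in IRI RIPC. The 2 surgeries did not overlap, and the IRI RIPC library at 1944 stood above the other 4 IRI libraries. Its log2 fold change of 2.24 (SE 0.46) had an adjusted p of 0.111.

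Il6, the ligand for which the family is named, was scarce in PMNs. It had 513 reads in 1 sham control library and 0 in the other 4 sham libraries, against 467 and 233 in IRI control and 53, 0 and 174 in IRI RIPC. The surgeries overlapped. The fitted log2 fold change was 4.80 (SE 2.33, adjusted p = 0.422). It was 0.47 (SE 3.11, adjusted p = 1.00) among control libraries alone and 9.12 (SE 3.62, adjusted p = 0.452) among RIPC libraries alone, where all sham libraries were at 0.

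Both receptors of TNF were lower in every sham PMN library than in any IRI library, and for Tnfrsf1a the lowest values were those of sham RIPC. Tnfrsf1a had 142 and 126 normalized counts in sham control and 45.6, 15.5 and 13.0 in sham RIPC, then 257 and 383 in IRI control and 360, 417 and 497 in IRI RIPC. No IRI library reached down to the sham range. The log2 fold change was 2.68 (SE 0.43, adjusted p = 0.0437). The call was lost in 8 of 10 fits that each left out 1 library, and it was kept without replicate 1 or without replicate 3 of sham RIPC. Over all 10 of these fits the log2 fold change was 2.53 to 3.07. With the size factors of DESeq2 in place of TMM the adjusted p was 0.0509. Among control libraries alone the log2 fold change was 1.26 (adjusted p = 0.736), and among RIPC libraries alone it was 4.10 (adjusted p = 0.0344).

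Tnfrsf1b showed the wider separation. It had 28.5 and 0.0465 normalized counts in sham control, the latter a single read, and 66.1, 73.9 and 0 in sham RIPC. After IRI it had 431 and 457 in control and 625, 696 and 545 in RIPC. The 5 IRI libraries lay within a factor of 2 of each other and the sham libraries ranged down to 0, and the log2 fold change of 4.35 had an SE of 1.74 (adjusted p = 0.413). As a share of the summed TPM of both TNF receptors, Tnfrsf1b made up between 0% and 61.2% in sham libraries (median 8.87%) and between 33.6% and 44.1% after IRI (median 39.2%), so that the shares overlapped while their spread narrowed.

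The chains of the interleukin-6 and oncostatin M receptors gave no such separation in PMNs. Il6ra, the chain that binds interleukin-6, had 71.3 and 60.0 normalized counts in sham control, 62.6, 0.265 and 3.10 in sham RIPC, and between 65.9 and 182 after IRI. The low values were those of 2 sham RIPC libraries, and 1 sham control library reached into the IRI range (log2 fold change 1.45, SE 1.11, adjusted p = 0.609). Il6st ranged from 3.20 to 40.1 after sham surgery and from 1.69 to 37.2 after IRI (log2 fold change -0.48, SE 1.13, adjusted p = 0.948). Osmr had between 2 and 189 reads after sham surgery and between 0 and 340 after IRI (log2 fold change 0.20, SE 1.78, adjusted p = 1.00), and its direction turned under several settings given with the sensitivity of the results. Of the reads assigned to Osmr in PMNs, 7.85% were on the main protein-coding transcript, Osmr-201, and most of the rest were on transcripts with retained introns.

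Stat3 had 233 and 28.5 normalized counts in sham control PMNs and 233, 233 and 59.2 in sham RIPC, and 437, 434, 560, 610 and 878 after IRI. The 3 libraries at the top of the sham range were alike and lay below the lowest IRI library. With a log2 fold change of 1.85 (SE 0.59), Stat3 did not pass the test (adjusted p = 0.331). Stat3 overlaps Stat5a on the opposite strand, and whether the counting used strand is not given in the sources used here.

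Socs3, the feedback inhibitor, had 437 and 0 normalized counts in sham control and 39.7, 251 and 172 in sham RIPC. After IRI it had 623 and 729 in control and 753, 792 and 929 in RIPC. The IRI libraries were close together and above all sham libraries, which spread from 0 reads in replicate 2 to 11074 reads in replicate 1 of sham control. Accordingly the SE of 1.39 was large beside the log2 fold change of 2.02 (adjusted p = 0.560). Without replicate 1 of sham control, the control arm rested on the library with 0 reads, and Socs3 and Stat3 were then called (adjusted p = 0.00414 and 0.0341). Replicate 2 of sham control, in which Tnfrsf1b had 1 read as well, had 5970 reads of Osm and a neutrophil sum of 14716 TPM. It also had the highest proximal tubule sum of the PMN libraries, 8532 TPM. Its sum of distal tubule and collecting duct markers was 1019 TPM, against at most 182 in the other PMN libraries.

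**Figure D3:**
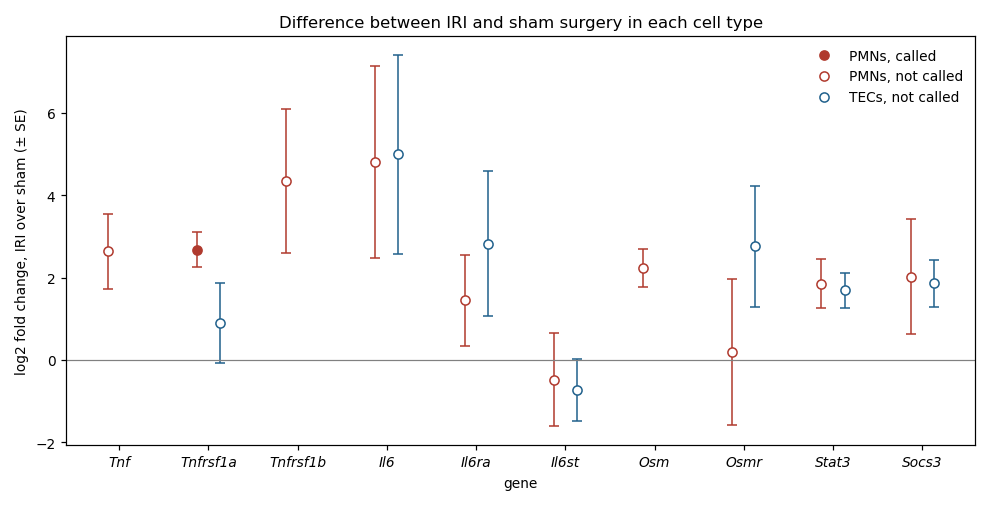
Log2 fold change between IRI and sham surgery (vertical axis, with bars of 1 SE) for each gene in PMNs and in TECs, filled where the adjusted p was under 0.05. Tnfrsf1a in PMNs is the one filled point, at 2.68, and Il6, Tnfrsf1b, Osmr and Il6ra have the widest bars.

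Since tubular and macrophage marker sums differed between the surgeries, each gene was also set against the summed TPM of the neutrophil list in the same library, a measure chosen after the data had been seen. Per 1000 TPM of that list, Tnf was between 0.0580 and 1.87 after sham surgery and between 2.22 and 8.11 after IRI. Osm was between 1.49 and 4.88 and between 6.01 and 10.7. Tnfrsf1a was between 0.363 and 2.41 and between 2.63 and 7.19. These 3 genes, and Tnfrsf1b and Socs3, kept all IRI libraries above all sham libraries, which on this scale held for 1.52% of all genes. The ranges of Stat3 overlapped (0.954 to 3.47 against 1.67 to 7.86). The median after IRI was 25.0-fold that after sham surgery for Tnfrsf1b, 4.98-fold for Tnfrsf1a, 4.17-fold for Tnf, 3.44-fold for Osm and 2.47-fold for Socs3, without a test.

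**Figure D4:**
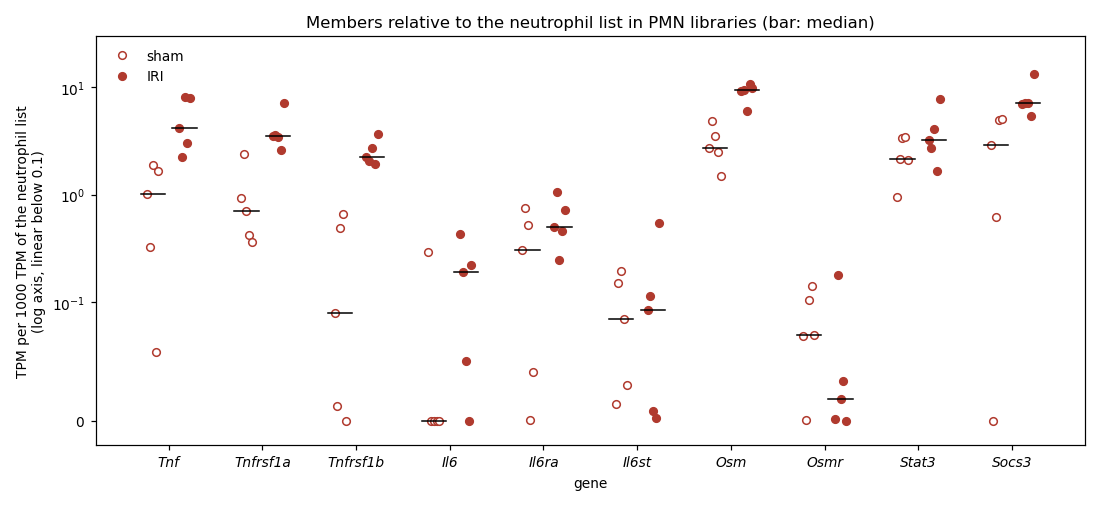
Level of each gene in PMN libraries as TPM per 1000 TPM of the neutrophil list (vertical axis, log scale above 0.1 and linear below), open circles for sham surgery and filled circles for IRI, with a bar at the median. Tnf, Tnfrsf1a, Tnfrsf1b, Osm and Socs3 lay higher in all 5 IRI libraries, and Stat3 overlapped.

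Of 24 other genes of TNF signaling, 1 was called in PMNs. This was Tnfaip2, a gene induced by TNF, at 4.05 to 124 normalized counts after sham surgery and 237 to 414 after IRI (log2 fold change 3.88, SE 0.53, adjusted p = 0.0256). Of 26 genes known as STAT3 targets, 25 were tested and 3 were higher after IRI. They were Pim1, a survival kinase (log2 fold change 2.28, SE 0.27, adjusted p = 0.0178), Il1rn, the interleukin-1 receptor antagonist (2.66, SE 0.38, adjusted p = 0.0294), and Mcl1, an anti-apoptotic member of the BCL2 family (1.92, SE 0.29, adjusted p = 0.0359). Pim1 had between 74.6 and 143 normalized counts after sham surgery and between 435 and 577 after IRI, the narrowest ranges among these genes. Over all genes 0.364% were called higher. In 7 of the 25 STAT3 targets and in 5 of the 24 TNF signaling genes all IRI libraries lay above all sham libraries, against 3.43% of all genes, and in none of either list below, against 2.08%. None was called among 10 tested ligands and 21 tested receptors of the TNF superfamily, 6 ligands and 3 receptors of the interleukin-6 family, 10 Janus kinases and STAT factors, and 15 SOCS, PIAS and phosphatase inhibitors. In these lists, 2 of the 21 receptors of the TNF superfamily and 2 of the 15 inhibitors had all IRI libraries above all sham libraries. None of the other genes in these lists did. The list medians of log2 fold change were 0.87 for TNF signaling, 1.05 and 2.98 for TNF superfamily ligands and receptors, 0.53 and -1.25 for ligands and receptors of the interleukin-6 family, 1.68 for Janus kinases and STAT factors, 0.85 for the inhibitors and 1.56 for STAT3 targets, against -0.01 over all genes. Of the 12 neutrophil markers, 1, Il1r2, was also called higher (3.17, SE 0.53, adjusted p = 0.0489), and 2 had all IRI libraries above all sham libraries.

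In TECs, Stat3 separated the surgeries and no member passed the test. Tnf, Tnfrsf1b and Osm had too few reads to be tested, which left 7 of the 10 genes among 25917. None was called by edgeR at an adjusted p under 0.05, where 0.255% of all genes were called higher. At an unadjusted p under 0.05 (edgeR) there were 2, Stat3 and Socs3, against 3893 of the 25917 genes. The Wald test of DESeq2 called 3, Il6, Stat3 and Socs3, against 2051 of all genes. All IRI libraries lay above all sham libraries in 1 of the 7, Stat3, and in 1.43% of all genes, and below in none of the 7, against 3.16%.

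Stat3 had 155, 67.6 and 44.5 normalized counts in sham control TECs and 25.6, 65.1 and 55.3 in sham RIPC. After IRI it had 168 and 182 in control and 279, 188 and 305 in RIPC. The log2 fold change was 1.69 (SE 0.43, adjusted p = 0.0726). Without replicate 1 of sham control, the library nearest to the IRI range, Stat3 passed the test (adjusted p = 0.035), as it did with robust dispersion estimates (adjusted p = 0.0428). Il6st, in contrast, had 15.4 to 32.2 normalized counts after sham surgery and 1.42 to 24.3 after IRI (log2 fold change -0.73, SE 0.75, adjusted p = 0.723).

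Socs3 was present in every TEC library. It had 60.7, 14.9 and 42.2 normalized counts in sham control and 18.4, 24.2 and 31.3 in sham RIPC, then 331 and 53.6 in IRI control and 111, 33.7 and 53.8 in IRI RIPC. Of the 5 IRI libraries, 331 and 111 lay above the sham range and the other 3 within it. The log2 fold change was 1.86 (SE 0.57, adjusted p = 0.146), and it was 0.93 (adjusted p = 0.777) without that library, replicate 1 of IRI control.

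Pooled over the TEC libraries, 73.4% of Osmr reads were on the protein-coding transcript Osmr-201. In the 6 TEC libraries with at least 100 Osmr reads, this share ranged from 3.57% to 92.4% (median 60.0%). Reads of Osmr were 628, 0 and 0 in sham control and 16, 4 and 135 in sham RIPC. After IRI they were 2444 and 2037 in control and 454, 204 and 67 in RIPC. The 2 IRI control libraries were the highest of the 11, and the IRI RIPC libraries overlapped with sham (log2 fold change 2.77, SE 1.47, adjusted p = 0.401). Without replicate 1 of sham control, Osmr was called (adjusted p = 0.0159), with the 2 remaining sham control libraries at 0.

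Tnfrsf1a ranged from 1.53 to 123 normalized counts in sham TECs and from 1.56 to 95.3 after IRI (log2 fold change 0.90, SE 0.97, adjusted p = 0.738). Il6 was at 0 in 5 of 6 sham libraries, with 458 reads in the other, and at 0 in 2 of 5 IRI libraries, with 204, 189 and 365 reads in the others (log2 fold change 4.99, SE 2.42, adjusted p = 0.356). Il6ra had 0 to 173 reads after sham surgery and 0 to 1148 after IRI (log2 fold change 2.82, SE 1.76, adjusted p = 0.499). For all 3 genes the surgeries overlapped.

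The neutrophil list in TECs was low but moved with surgery, from a sum of 0.445 to 8.87 TPM after sham surgery to 5.57 to 118 after IRI. Between 1 and 4 of the 12 markers were over the limit of 6 reads in sham TECs and between 5 and 8 after IRI, with median sums of 4.64 and 55.6 TPM. Il1r2 reached 1539 reads in an IRI library, whereas Camp and Ltf were at or under the limit in all TEC libraries. Osm had 0 or 1 read in 10 of the 11 TEC libraries and 28 reads in replicate 2 of IRI RIPC, where the neutrophil sum was 25.8 TPM. The IRI libraries with higher neutrophil sums, between 55.6 and 118 TPM, had at most 1 read of Osm. Of all Osm reads in TECs, 84.3% were on a processed transcript, Osm-202, which held 0.741% in PMNs. Tnf had 0 reads in all 5 IRI libraries. Macrophage markers summed to at most 24.2 TPM in TECs. Proximal tubule markers fell in TECs, with 4 of 10 called lower (Slc22a6, Lrp2, Miox and Slc34a1), against 1.15% of all genes, and sums of 3262 to 8119 TPM after sham surgery against 1464 to 2783 after IRI. The part of this shift in the values of Stat3 and Socs3 was not tested.

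Among the other pathway genes, 1 of 20 tested TNF superfamily receptors and 3 of 25 STAT3 targets were called higher in TECs after IRI, against 0.255% of all genes. Tnfrsf12a, the receptor for TWEAK, had 13.3 to 201 normalized counts after sham surgery and 154 to 742 after IRI (log2 fold change 3.04, SE 0.64, adjusted p = 0.0343). Fosl1, a subunit of the AP-1 transcription factor, was at 0 in all 6 sham libraries and had between 517 and 13459 reads after IRI, so that its mean in RPM was at least 792-fold higher than the limit of 6 reads per library (adjusted p = 0.00206). Without replicate 3 of IRI RIPC, the library with 13459 reads, the bound was 378-fold. Il4ra, the interleukin-4 receptor chain (adjusted p = 0.0076), had between 0 and 418 reads after sham surgery and between 61 and 2279 after IRI, and Serpina3n, a secreted serine protease inhibitor (adjusted p = 0.041), had between 0 and 78 and between 0 and 5372, so both overlapped. Of 24 TNF signaling genes 1 was called lower. This was Tab1, an adaptor of the kinase TAK1 (adjusted p = 0.041), with 20 to 901 reads after sham surgery and 0 to 48 after IRI. Of the other lists, 9 TNF superfamily ligands, 7 ligands and 5 receptors of the interleukin-6 family, 10 Janus kinases and STAT factors and 15 inhibitors were tested, and none was called.

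PMNs and TECs differed in Tnf, Osm and Tnfrsf1b under both surgeries. In a fit of all 21 libraries, these 3 of the 10 genes were called higher in PMNs after sham surgery, where 1.49% of 31769 genes were, and the same 3 were called after IRI, where 1.49% of genes were. Tnf had no reads in 10 of 11 TEC libraries and 2 reads (0.0265 TPM) in the other, while PMNs had 0.904 to 47.9 TPM after sham surgery and 68.0 to 248 after IRI (adjusted p = 7.93e-05 and 0.000145). After IRI, the mean of Tnf in PMNs in RPM was at least 1163-fold higher than the limit that 0 reads in all 5 TEC libraries allowed. Osm reached 14.3 to 130 TPM in sham PMNs and 183 to 486 after IRI, against at most 0.0091 and 1.26 TPM in TECs (adjusted p = 1.15e-05 and 0.000141). Tnfrsf1b was at most 0.131 TPM in any TEC library, against 0 to 10.3 TPM in sham PMNs and 59.9 to 88.7 after IRI (adjusted p = 0.0164 and 0.00705). The Tnfrsf1b call after sham surgery was lost in the fit of the compared groups alone and in 6 of 21 fits that each left out 1 library. Among these 6 was the fit without replicate 1 of sham control PMNs (log2 fold change 3.56). The others left out replicate 1 or 2 of sham control TECs or any 1 of the 3 sham RIPC TEC libraries. Over all 21 fits the log2 fold change ranged from 3.56 to 10.25. The other calls were kept in all 21 such fits. PMNs also held macrophage transcripts, with marker sums of 1775 to 6013 TPM after sham surgery and 330 to 1019 after IRI. Whether their Tnf, Osm and Tnfrsf1b reads came from neutrophils or macrophages therefore cannot be told apart under either surgery.

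The other 7 genes were measured in both cell types. Stat3 was between 20.4 and 60.7 TPM in sham PMNs and between 6.20 and 16.5 in sham TECs, and after IRI between 76.2 and 166 and between 19.9 and 34.6 (log2 fold change 1.48, SE 0.57, adjusted p = 0.235 after IRI). Socs3 was between 186 and 285 TPM in PMNs after IRI and between 9.43 and 77.5 in TECs (log2 fold change 2.83, SE 1.11, adjusted p = 0.249). Neither difference passed the test. In TPM, all PMN libraries lay above all TEC libraries in 3 of the 10 genes after sham surgery (Tnf, Osm and Stat3), against 4.3% of all genes, and in 6 after IRI (those 3, Tnfrsf1a, Tnfrsf1b and Socs3), against 4.55%. Il6st was between 0.923 and 3.80 TPM in sham TECs and between 0.289 and 3.56 in sham PMNs, with a log2 fold change of -0.06 (SE 0.95, adjusted p = 1.00). Osmr had the one negative estimate after IRI, a log2 fold change of -2.91 (SE 1.86, adjusted p = 0.518).

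The change with IRI was not shown to differ between the cell types for any member. The difference of the IRI effects was called for 0 of 10 genes, and for 0% of 31769 genes, by edgeR. At an unadjusted p under 0.05 edgeR gave 3102 genes and none of the 10. The Wald test of DESeq2 called 0 of the 10, against 1945 of all genes. Tnfrsf1b had the largest estimate relative to its error, 4.15 log2 units more in PMNs (SE 2.19, adjusted p = 0.585). For Stat3 and Socs3 the differences were 0.14 (SE 0.77) and 0.14 (SE 1.42). Tnf and Il6 had groups at 0 in TECs and gave no usable estimate.

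RIPC against control gave no call among the 10 genes in either cell type. In PMNs after sham surgery 0 of 10 members were called, against 0.004% of all genes. In PMNs after IRI, in TECs after sham surgery and for both interactions of RIPC with surgery no gene was called (0% each), and in TECs after IRI 0.00386% were called and no member. At an unadjusted p under 0.05 edgeR gave 2 members in sham PMNs (Tnfrsf1a and Il6), 1 in sham TECs (Il6) and 1 in the PMN interaction (Tnfrsf1a), and none in the other comparisons. Over all genes, the same rule gave 1150 of 25002 in sham PMNs, 1175 of 25917 in sham TECs and 1434 of 25002 in the PMN interaction. The other comparisons had 680 to 1869 genes. The Wald test of DESeq2 called the same 2 in sham PMNs, and Il6 alone in sham TECs and in both interactions, and none after IRI. Over all genes it called 770 in sham PMNs, 366 in sham TECs, and 792 and 655 in the PMN and TEC interactions. After IRI it called 353 genes in PMNs and 609 in TECs. Il6 in these comparisons was read from 1 control library in each cell type (513 and 458 reads), with every sham RIPC library at 0.

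Tnfrsf1a in sham PMNs had the smallest unadjusted p of these. The control libraries had 142 and 126 normalized counts and the RIPC libraries 45.6, 15.5 and 13.0, and the RIPC libraries lay below both controls, as they did in 8.24% of all genes (log2 fold change -2.44, SE 0.57, unadjusted p = 0.00197, adjusted p = 0.705). After IRI the control libraries had 257 and 383 and the RIPC libraries 360 to 497 (log2 fold change 0.41, SE 0.57, adjusted p = 1.00). The interaction was 2.85 log2 units (SE 0.82, unadjusted p = 0.00694, adjusted p = 0.719). Osm in sham PMNs followed the same order, 436 and 278 against 217, 143 and 55.4 (log2 fold change -1.37, SE 0.61, adjusted p = 0.705). After IRI, Tnf in PMNs had 271 and 171 normalized counts with the control procedure and 372 to 638 with RIPC (log2 fold change 1.09, SE 1.23, adjusted p = 1.00). In TECs after IRI, Osmr had 99.0 and 97.1 normalized counts with the control procedure and 17.7, 9.36 and 3.16 with RIPC (log2 fold change -3.28, SE 2.16, adjusted p = 0.778), and Socs3 was lower by 1.54 log2 units with an SE of 0.83 (adjusted p = 0.778). In PMNs after IRI all RIPC libraries lay above both control libraries in 4 of the 10 genes (Tnf, Tnfrsf1b, Stat3 and Socs3), against 6.41% of all genes, and below in 1 (Il6), against 10.1%. In TECs after IRI they lay above in 1 of 7 (Stat3), against 7.76% of all genes, and below in 1 (Osmr), against 8.89%. None of these differences passed the test.

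The order of levels, compared in TPM because it is scaled by transcript length, differed between the cell types. In PMNs after IRI the medians ran from Osm (243), Socs3 (220), Tnf (139), Tnfrsf1a (111), Stat3 (85.7) and Tnfrsf1b (77.1) to Il6ra (15.1), Il6 (4.69), Il6st (2.48) and Osmr (0.552). The ranges of neighbors overlapped except between Tnfrsf1b and Il6ra, where all 5 libraries of the former were above those of the latter. In sham PMNs the order began with Osm (64.6), Socs3 (48.4) and Stat3 (45.4), and all neighbors overlapped. In sham TECs Stat3 (9.94), Socs3 (7.32), Tnfrsf1a (3.51) and Il6st (1.75) came first, and after IRI Stat3 (25.8), Tnfrsf1a (11.4) and Socs3 (10.2), again with overlapping ranges, except that Socs3 was above Il6 (2.05).

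The genes whose log2 normalized counts followed Socs3 most closely over the 10 PMN libraries were Inpp5d, Fes and Creb3 (Pearson's r = 0.985, 0.984 and 0.977 among 25001 genes), and over the 11 TEC libraries Prkcb, Zfp811 and Gm27201 (0.926, 0.922 and 0.906). These are descriptions over libraries that include both surgeries and, in PMNs, 1 library with Socs3 at 0. Of the other 9 members, Stat3 was nearest to Socs3 in PMNs (r = 0.844, rank 290) and Osmr in TECs (r = 0.761, rank 331).

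In PMNs, 1 protein-coding transcript held 99.9% of the reads of Tnf, 98.8% of Tnfrsf1a, nearly all of Tnfrsf1b, 99.3% of Osm and 99.4% of Socs3. Il6 differed, with 64.2% of its reads on Il6-201 in PMNs and 81.4% on Il6-203 in TECs, a split between overlapping transcripts made by the authors' quantification. Il6st reads were divided between Il6st-203 and Il6st-201 in both cell types, and Il6ra-201 held 82.3% of Il6ra reads in PMNs, where an antisense gene, Gm42809, overlaps Il6ra and had 189 reads over all libraries.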

How the data were processed

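The authors trimmed single-end reads with Trim Galore 0.6.4 and quantified them with Salmon 1.0.0 against Gencode vM23 (mm10), per the study's methods and the submitters' processing notes. The deposited values used were estimated counts and TPM per transcript, in 2 files per library. The labels do not say what separates the 2 files, whose totals differed by -0.178% to 0.492%. Estimated counts were summed over transcripts (Gencode vM21 of GRCm38, matched without version, 139864 of 140748 transcripts) and files and rounded. TPM were summed over transcripts and averaged over files. As in the study, 3717 allosomal and mitochondrial genes did not enter the tests.

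Tests used edgeR 4.0.16 (limma 3.58.1, R 4.3.3) with TMM, filterByExpr and 1 mean per group, over the 4 groups of a cell type or all 8 groups. SE is the log2 fold change divided by the root of F. The tests were checked on simulated counts. Alternatives were DESeq2 1.42.0 (size factors, Wald test, and apeglm 1.24.0 with s values under 0.01, as in the study), no filter, a mean of at least 10 counts, each file alone, a length offset, the left-out genes included, robust dispersions, the replicate number as a block, the compared groups alone, control or RIPC libraries alone, and each library left out. The genes and lists were chosen with earlier results of these data known. Named besides the 10 members were up to 3 called genes per list, direction and cell type in IRI against sham, and the 3 genes most like Socs3.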

Additional observations from a re-analysis of the deposited data

How the results depend on the processing

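Among control libraries alone, with DESeq2 size factors and with the replicate block, 0 members were called in IRI against sham in PMNs, where 1 was reported. Without a filter on low counts 6 were called, and 4 by the Wald test of DESeq2 and by apeglm. In TECs, where 0 were reported, 3 were called without the filter, 1 with robust dispersions, 3 by the Wald test and 2 by apeglm. Between the cell types, where 3 were reported under each surgery, the counts after sham surgery were 5 without the filter and 6 by apeglm, and after IRI 6 without the filter, 5 from the compared groups alone, and 6 by the Wald test and by apeglm. The difference of the IRI effects gave 1 without the filter. For RIPC, the Wald test gave 2 in sham PMNs, 1 in sham TECs and 1 in each interaction, and apeglm gave 1 in sham PMNs and 1 in the PMN interaction.

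With 1 library left out at a time, members called ranged from 0 to 2 for IRI against sham in PMNs and in TECs, from 0 to 1 for the difference of the IRI effects and from 0 to 1 for RIPC in sham PMNs. Without replicate 1 of sham control PMNs, Socs3 made up the last of these. Log2 fold changes that turned sign were those of scarce genes or of groups with a library at 0. Between PMNs and TECs after sham surgery they ranged from -5.16 to 5.50 for Il6, -1.48 to 0.32 for Il6st, -2.78 to 5.01 for Osmr and -5.11 to 3.15 for Socs3, and after IRI from -0.53 to 5.04 for Il6 and -1.16 to 0.57 for Il6st. Between the surgeries in PMNs they ranged from -1.83 to 0.96 for Il6st and -1.84 to 2.59 for Osmr. Osmr in PMNs was also negative with an offset for transcript length (-0.12), with the replicate block (-1.72) and in RIPC libraries alone (-0.92). With the length offset Il6st in PMNs was 1.02 and Osmr between cell types after sham surgery 1.20. Il6st between cell types after sham surgery was 0.0044 with a mean of at least 10 counts and 0.18 with the replicate block, and Il6 in TECs was -0.68 in control libraries alone. The causes were not tested. Of 1058 alternative values of 37 log2 fold changes, 965 kept direction and side of the threshold.

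Over all genes, IRI against sham in PMNs gave 104 calls, 971 without the filter, 23 with the replicate block, 0 in control and 62 in RIPC libraries alone, 1780 by the Wald test and 2071 by apeglm. In TECs it gave 363, and 1289, 404, 1, 25, 2051 and 2507. PMNs against TECs gave 832 after sham surgery, 2222 without the filter, 4306 by the Wald test and 3864 by apeglm, and after IRI 847, 1763, 3365 and 2971. The difference of the IRI effects gave 0, 722 without the filter, 1945 by the Wald test and 1205 by apeglm. RIPC and its interactions gave 0 or 1 call each as reported, 18 to 139 without the filter, 353 to 792 by the Wald test and 35 to 532 by apeglm, and in TECs after IRI 2 to 4 with robust dispersions, the replicate block, a mean of at least 10 counts or the first file alone. Same-numbered libraries of a cell type did not deviate together (r from -0.098 to 0.133 over 28 pairs), nor did those of different cell types (-0.045 to 0.072 over 38 pairs). With groups of 2 or 3 libraries, this could not exclude a shared mouse or batch. The labels give only a shared number, and the fit with the replicate block is given here alone. The 6 members without overlap in PMNs were 6 on the TPM scale, 5 relative to the neutrophil list, and 6 to 7 with 1 library left out, and these settings were chosen after the data had been seen.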
